A study of Mus musculus with 9 samples.

Results

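A set of 10 genes known from fat cells was at its highest level in the gastrocnemius of a single newborn knock-out mouse, KO5. The genes are *Adipoq*, *Lep*, *Retn*, *Cfd*, *Plin1*, *Cidec*, *Fabp4*, *Pck1*, *Car3* and *Pparg*, which are 10 of the 55471 genes in the deposited count table. The genes were chosen by their level in KO5, so values that set KO5 beside other mice are a description, and where a fit or limit across all genes includes KO5 nothing is read from it for these genes. The RNA came from the gastrocnemius, a calf muscle, of 9 mice at postnatal day 0 to 1 on a C57BL/6 background, 1 library per mouse. Of these, 5 (KO1 to KO5) were homozygous *Shank3Δ11(−/−)* mice from heterozygous C57BL/6JRj matings, with a germline deletion rather than one limited to muscle, and 4 (WT1 to WT4) were wildtype *Shank3(+/+)*. The tissue was whole dissected muscle with no sorting of cells, and the genotype comparison asks how loss of the scaffold protein Shank3 alters the transcriptome of newborn muscle. The study left KO2 and KO4 out of its own analysis and gave low read numbers as the reason. In the deposited table KO2 has 28211941 counts, more than KO5, and KO4 has the highest total, and both are kept here except where stated.

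White adipocytes store fat as triglyceride in a large droplet, release it again as fatty acids, and secrete hormones into the blood. The nuclear receptor PPARγ, acting with the C/EBP transcription factors, drives their differentiation and keeps their genes on. Fat lies around and between the bundles of skeletal muscle, and some genes that are abundant in fat, such as *Car3* and *Fabp4*, are also used by muscle fibres or by the endothelium of its capillaries.

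Library totals ran from 26444372 counts in KO5, the lowest of the 9, to 40471957 in KO4, with a median of 31435732. Levels are counts per 1e6 counts (CPM) after TMM scaling, and summed CPM of the muscle marker list (such as sarcomere genes) was 69371 in KO5, within the 64104 to 71836 of the other 8 mice. Single muscle genes did stand apart in KO5, with the embryonic myosin *Myh3* at 2093 CPM against 4169 to 5781 and the neonatal myosin *Myh8* at 19496 against 13555 to 17125. *Shank3* itself was counted at 25.7 to 38.5 CPM in all 9 mice, and such counts over the whole gene do not check a deletion of exon 11. *Xist*, the RNA of the inactive X chromosome, was at 618 to 925 CPM in WT3, WT4, KO3 and KO5, the other 5 mice having at most 3.23.

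The sequences just before the start of 3 genes are shown because their regulators belong to the C/EBP family or bind CCAAT boxes. RefSeq windows on GRCm38.p6 (250 bases before to 50 after the start) matched 8 of the 10 genes with 11 windows; *Fabp4* and *Car3* had none. Capitals mark TTGCNNAA, a C/EBP core (*Lep* and *Plin1*), or CCAAT on either strand (*Adipoq*). The windows, printed 5′ to 3′ on the strand of the gene, are chr6:29059971-29060219 (plus strand) for *Lep*, chr7:79732904-79733026 (minus strand) for *Plin1* and chr16:23146286-23146535 (plus strand) for *Adipoq*. They end before the gene as GENCODE M21 gives it, which starts upstream of the RefSeq start by 127 bases for *Plin1* and 1 base for *Lep*.
Lep: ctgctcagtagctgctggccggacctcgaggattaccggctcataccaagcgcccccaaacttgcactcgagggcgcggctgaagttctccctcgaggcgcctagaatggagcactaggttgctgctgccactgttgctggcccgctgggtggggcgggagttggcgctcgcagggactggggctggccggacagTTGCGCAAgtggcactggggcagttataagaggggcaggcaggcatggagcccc
Plin1: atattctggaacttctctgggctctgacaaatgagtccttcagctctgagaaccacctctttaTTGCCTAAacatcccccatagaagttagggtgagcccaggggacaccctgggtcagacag
Adipoq: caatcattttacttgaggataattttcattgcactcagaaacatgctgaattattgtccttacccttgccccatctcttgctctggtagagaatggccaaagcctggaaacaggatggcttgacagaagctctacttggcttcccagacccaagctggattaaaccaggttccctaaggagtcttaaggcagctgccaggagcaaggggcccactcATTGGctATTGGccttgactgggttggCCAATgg

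Counting the base before the RefSeq start as -1, *Lep* held the palindrome TTGCGCAA at -55 to -48, a sequence found on either strand in 0.183% of all 32851 promoter windows. *Plin1* held TTGCNNAA at -187 to -180 and, in the stretch not printed, at -58 to -51, and 4 of the 11 windows (those of *Cidec*, *Lep*, *Plin1* and *Pparg*) held it at least once against 10.8% of all windows; each TTGCGCAA also counts as a TTGCNNAA. CCAAT stood in 3 of the 11 windows against 37.4% of all, among them the *Adipoq* window, where it begins at -34, -27 and -7. The direct repeat of AGGTCA with 1 base between, bound by PPARγ with RXR, was in 0 of the 11 windows and in 0.0396% of all, while AGGTCA alone was in 2 of 11, both of *Pparg*, against 16.3%. TATAAA was in 1 of 11, again of *Pparg*, against 13.6% of all windows. These are matches of letters in a short window and do not show that a factor binds.

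Of the 10 genes, 4 encode secreted proteins. *Adipoq* (ENSMUSG00000022878, chr16:23146536-23158028 on mm10) encodes adiponectin, a hormone made almost only by adipocytes. It measured 9.02 CPM in KO1, 2.82 in KO2, 0.157 in KO3, 0.289 in KO4 and 78.6 in KO5, and 0.523, 0.0295, 1.71 and 0.423 in WT1 to WT4. KO5 lay 8.71-fold above KO1, the next mouse, and 166-fold above the median of the other 8. KO1 and KO2 in turn lay above every wildtype mouse, while KO3 and KO4 lay among them.

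*Cfd* (ENSMUSG00000061780, chr10:79890853-79892655) encodes adipsin, the complement factor D that fat secretes. Its level was 145 CPM in KO5 against 9.02 in KO1, 0.509 in KO2, 0.0944 in KO3 and 0 in KO4, and 0.0308, 0.0886, 0 and 0.358 in WT1 to WT4. The 3821 counts in KO5 give an exact Poisson 95% interval of 140 to 150 CPM, which covers counting error only. KO5 was 16.1-fold above KO1, and the remaining 7 mice held 15 counts or fewer each.

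*Retn* (ENSMUSG00000012705, chr8:3655770-3660110) encodes resistin, another adipocyte hormone of the mouse. KO5 had 35.4 CPM, KO1 1.5, KO2 0.238, KO3 0.157 and KO4 0.131, and the wildtype mice had 0.0615, 0.0295, 0.102 and 0.13. KO5 exceeded KO1 23.6-fold. The 4 other knock-outs were all above the 4 wildtype mice, but KO2 to KO4 rest on 5 to 7 counts each, and their Poisson intervals overlap those of the wildtype mice, which hold 1 to 4 counts.

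*Lep* (ENSMUSG00000059201, chr6:29060220-29073877) encodes leptin, the hormone by which fat signals energy stores to the brain. It had 38 counts in KO5, 1.44 CPM with a Poisson interval of 1.02 to 1.98, and 0 counts in each of the other 8 mice. Against the limit that 0 counts allow, 3 counts over the 8 libraries together or 0.0116 CPM, KO5 was at least 124-fold higher. *Lep* was the lowest of the 10 genes in KO5.

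Another 3 genes encode proteins that coat the lipid droplet or carry fatty acids. *Plin1* (ENSMUSG00000030546, chr7:79720218-79732903, minus strand) encodes perilipin 1, which coats the droplet and controls access of lipases to it. Its level was 33.6 CPM in KO5, 4.41 in KO1, 2.72 in KO2, 0.157 in KO3 and 0.21 in KO4, and 0.215, 0.0886, 0.853 and 0.26 in WT1 to WT4. KO5 stood 7.62-fold above KO1, and KO1 and KO2 stood above all 4 wildtype mice.

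*Cidec* (ENSMUSG00000030278, chr6:113424634-113435760, minus strand) encodes a protein that fuses small droplets into large ones. It measured 25.7 CPM in KO5, 3.38 in KO1, 0.916 in KO2, 0.126 in KO3 and 0.0788 in KO4, and 0.0308, 0.118, 0.205 and 0.195 in the wildtype mice. The order was that of *Plin1*: KO5 7.6-fold above KO1, then KO2, with the remaining 6 mice at 0.205 CPM or less.

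*Fabp4* (ENSMUSG00000062515, chr3:10204088-10208576, minus strand) encodes a fatty acid binding protein of adipocytes that capillary endothelium also makes. It was abundant in every mouse, at 356, 179, 289, 402 and 843 CPM in KO1 to KO5 and 210, 288, 270 and 246 in WT1 to WT4. KO5 was 2.1-fold above KO4, the next mouse, and 564 CPM above the median of the other 8. KO1, KO3 and KO4 were above every wildtype mouse, KO3 by a narrow margin, and KO2 was the lowest of all 9.

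The enzymes of the set are *Pck1* and *Car3*. *Pck1* (ENSMUSG00000027513, chr2:173153048-173159273) encodes the cytosolic PEP carboxykinase, which in fat supplies glycerol phosphate for making triglyceride. Its level was 36.5 CPM in KO5, 2.6 in KO1, 0.509 in KO2, 0.283 in KO3 and 0.0263 in KO4, and 0.0923, 0.0886, 0.102 and 0.293 in WT1 to WT4. KO5 was 14-fold above KO1, and WT4 and KO3 were nearly level below KO2.

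*Car3* (ENSMUSG00000027559, chr3:14863512-14872523) encodes carbonic anhydrase 3, abundant both in fat and in slow muscle fibres. The 9 mice lay close together, at 1205, 1046, 1123, 1134 and 1456 CPM in KO1 to KO5 and 1116, 1277, 982 and 1016 in WT1 to WT4. KO5 was the highest but only 1.14-fold above WT2, although the 337 CPM between KO5 and the median of the other 8 exceeds the same difference of each low gene.

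*Pparg* (ENSMUSG00000000440, chr6:115360951-115490399) encodes PPARγ itself. It measured 14.2 CPM in KO5, 7.01 in KO1, 3.12 in KO2, 4.88 in KO3 and 5.49 in KO4, and 3.69, 3.84, 5.29 and 3.84 in the wildtype mice. KO5 was 2.03-fold above KO1 and 3.26-fold above the median of the other 8, and the other knock-outs overlapped the wildtype mice.

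**Figure D1:**
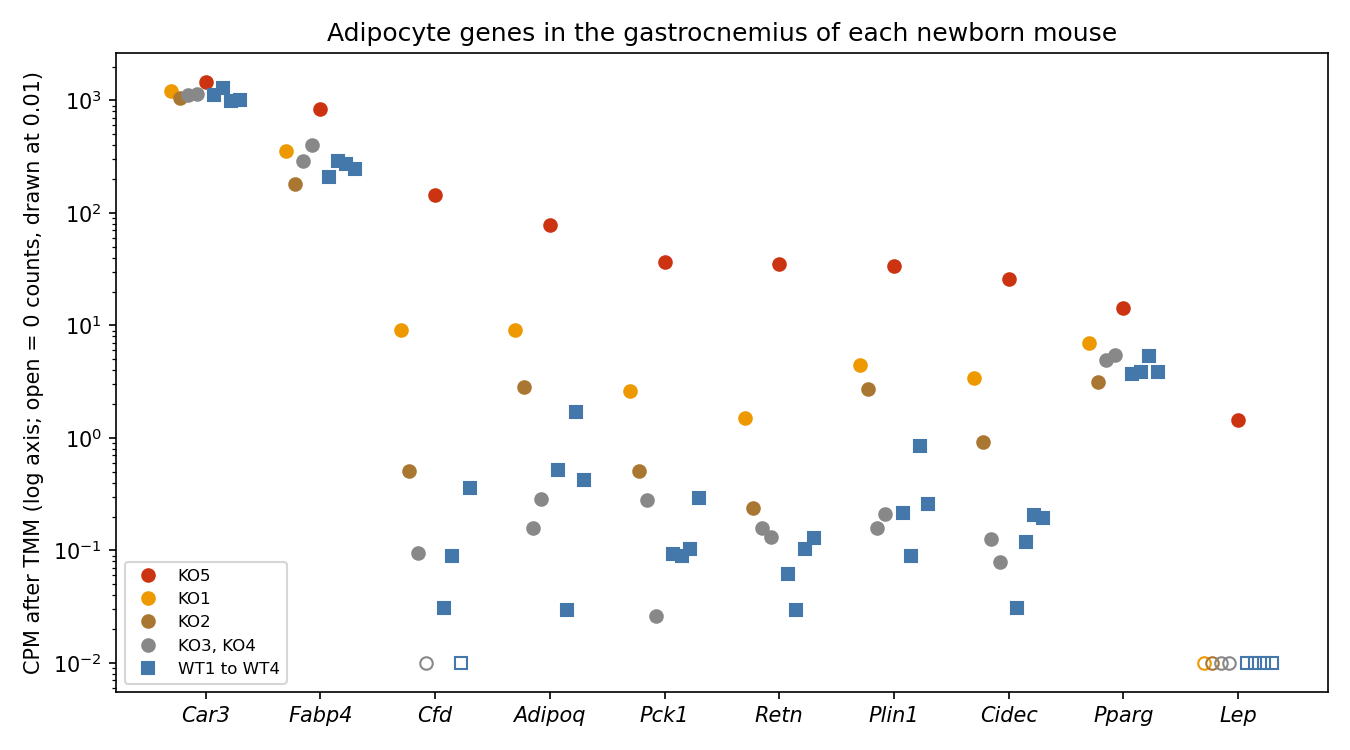
CPM of the 10 genes in each mouse on a log axis, with genes ordered by their level in KO5, circles for knock-out mice, squares for wildtype mice and open symbols for 0 counts. KO5 is the highest mouse for every gene, with a gap of 7.6-fold or more to the next mouse for the 6 genes *Cfd*, *Adipoq*, *Pck1*, *Retn*, *Plin1* and *Cidec*.

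By level, 2 of the 10 genes were shared with muscle tissue and 8 were low in it. A gene was counted as shared where each of the other 8 mice had at least 10 CPM, which held for *Car3* and *Fabp4*, and as low where each was under 10 CPM. *Pparg* is low by this rule yet was detected at 3.12 CPM or more in all mice, whereas *Lep* was found in KO5 alone. Per kilobase of exon, the KO5 level and the median level of the other 8 were 508 and 391 CPM per kb for *Car3*, 188 and 62.2 for *Fabp4*, and 4.82 and 1.48 for *Pparg*. On the same scale *Cfd* had 157 in KO5 and 0.0992 in the other mice, *Adipoq* 56.9 and 0.342, and *Retn* 22.4 and 0.0828. *Cidec* had 13.8 and 0.0865, *Pck1* 10.6 and 0.0562, *Plin1* 7.24 and 0.0511, and *Lep* 0.43 and 0. The exon length of *Fabp4* covers its whole gene in the annotation, so its level per kilobase is understated.

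Of the genes at 1 CPM or more in KO5, 94 of 18010 (0.522%) were at least 2-fold above the highest of the other 8 mice, and 9 of the 10 genes were among them, all but *Car3*. Just inside this limit were *Pparg* and *Fabp4*, at 2.03-fold and 2.1-fold, and *Car3* was outside it at 1.14-fold. These shares were fixed by how the genes were chosen and nothing is read from them. Counted the same way, WT4 had 89 such genes, KO4 33 and the remaining 6 mice between 1 and 10, with none of the 10 genes in any of these sets. In bulk RNA, more adipocytes in a piece of muscle and more RNA of these genes per adipocyte cannot be told apart.

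KO5 was not the only mouse with a level above the rest. Among the other 8, KO1 was first and KO2 second for 6 of 6 genes (*Adipoq*, *Cfd*, *Retn*, *Plin1*, *Cidec* and *Pck1*), an order noticed after the values were seen. It did not hold for *Pparg* and *Fabp4*, for which KO2 was the lowest mouse, or for *Car3*, for which WT2 was first and KO1 second. Over the 9 genes with counts the mean rank was 1.22 for KO1 and 3.78 for KO2. Summed over the 6 genes named first, KO5 had 355 CPM, KO1 29.9, KO2 7.7, WT3 2.97 and WT4 1.66. KO3, WT1, KO4 and WT2 had 0.975, 0.954, 0.735 and 0.443. With KO5 set aside, 20 of 17938 genes (0.111%) were at least 2-fold above the other 7 mice in KO1, and 5 of the 10 genes were among them: *Adipoq*, *Retn*, *Cfd*, *Cidec* and *Pck1*. Levels above the rest of the mice were thus seen in KO1 as well as in KO5, with a sum of 29.9 CPM against 355.

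The genes did not stand in one proportion to each other in these mice. *Cfd* made up 64.9% of the *Cfd* and *Adipoq* counts in KO5 (Wilson 95% interval 63.6 to 66.1, 5892 counts), 50% in KO1 (45.9 to 54.1, 576 counts) and 15.3% in KO2 (9.5 to 23.7, 98 counts). WT3 had 0 *Cfd* counts of 50, which allows a share of up to 6%. *Plin1* was 30% of *Plin1* and *Adipoq* in KO5 (28.4 to 31.7), 32.9% in KO1 (28.6 to 37.4), 49.1% in KO2 (41.5 to 56.7) and 33.3% in WT3 (23.7 to 44.6). *Retn* was 31.1% of *Retn* and *Adipoq* in KO5, 14.3% in KO1 (10.9 to 18.4) and 7.78% in KO2. *Cidec* was 43.3% of *Cidec* and *Plin1* in KO5 and 43.4% in KO1, and 25.2% in KO2 (18 to 34.2). *Pck1* was 31.7% of *Pck1* and *Adipoq* in KO5 (30.1 to 33.4), 22.4% in KO1 (18.4 to 26.9) and 15.3% in KO2. The intervals of KO5 and KO1 overlapped for the 2 pairs with *Plin1* and not for *Cfd*, *Retn* and *Pck1* against *Adipoq*. They cover counting error only, and reads of 1 library are not separate mice.

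**Figure D2:**
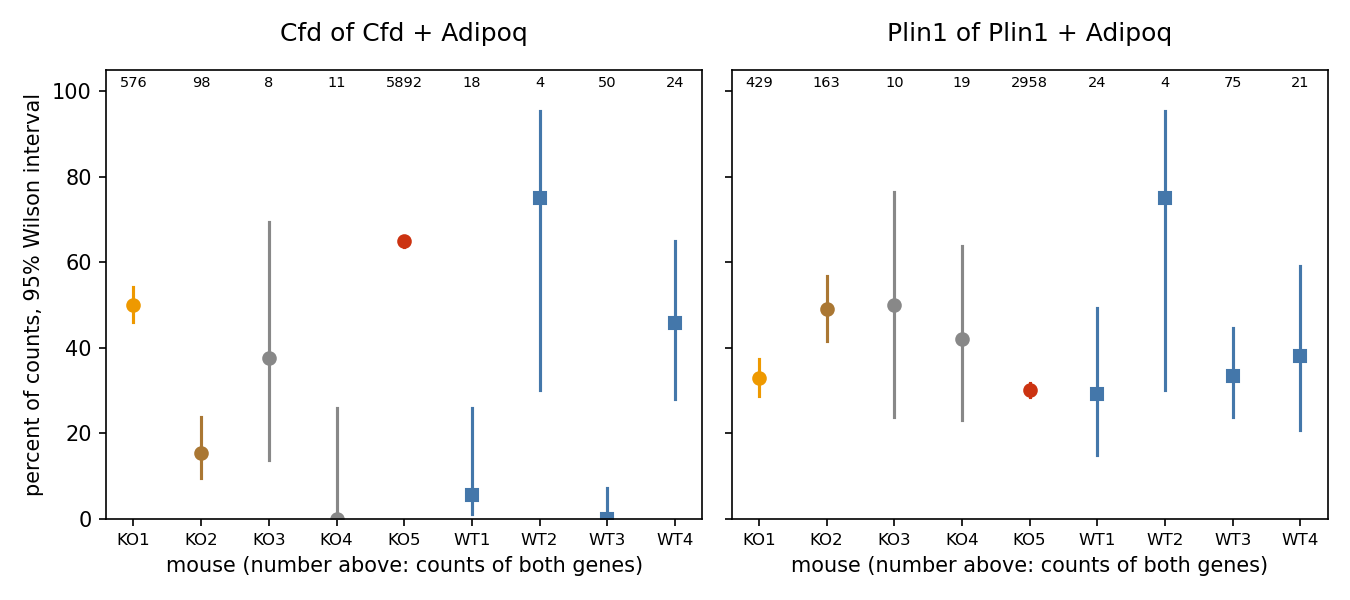
Share of *Cfd* in the counts of *Cfd* and *Adipoq* (left) and of *Plin1* in the counts of *Plin1* and *Adipoq* (right) in each mouse, in percent with 95% Wilson intervals and the summed counts printed above. The *Cfd* share is 64.9% in KO5, 50% in KO1 and 15.3% in KO2, while the *Plin1* share of KO5 and KO1 is 30% and 32.9%.

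Genotype was compared with KO5 set aside, in KO1 to KO4 against WT1 to WT4, with no pairing by number in the main fit. Since these 8 mice were the ones KO5 was set beside when the genes were chosen, the tests are not fully independent of that choice. None of the 10 genes was called, and 1 gene, *Retn*, separated the genotypes in every mouse at very low counts. Over 21522 genes, with edgeR's quasi-likelihood test and p-values adjusted by Benjamini-Hochberg, 0 genes (0%) were called at p below 0.05 with FDR below 25%, and 300 (1.39%) had an unadjusted p below 0.05. Only *Adipoq*, *Fabp4*, *Car3* and *Pparg* passed the filter on low counts, and 0 of the 4 had p below 0.05. With no filter 9 of the 10 genes could be fitted, 0 were called, and *Retn* (log2 fold change 2.60, SE 0.91, edgeR adjusted p = 0.999) was the only one with an unadjusted p below 0.05. DESeq2 called 5 genes and limma-voom 0, with none of the 10 among them. With the mice blocked by number, edgeR called 2 genes and 443 had an unadjusted p below 0.05, with none of the 10 in either set.

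*Adipoq* had a log2 fold change of 2.21 (SE 1.25, edgeR adjusted p = 1), knock-out over wildtype, from means of 3.07 ± 4.15 and 0.67 ± 0.722 CPM (SD, n = 4 each). Leaving out KO1 lowered the fold change to 0.69, and leaving out KO1 and KO2 together, an alternative added after seeing the data, turned it to -1.52 (SE 1.09), not past the threshold either. The difference of *Adipoq* therefore rests on those 2 mice. *Fabp4* had 0.27 (SE 0.21), *Pparg* 0.30 (SE 0.23) and *Car3* 0.04 (SE 0.11) on the log2 scale, each with an edgeR adjusted p of 1. In CPM, *Fabp4* averaged 306 ± 97 in KO1 to KO4 and 254 ± 33.9 in wildtype mice, *Car3* 1127 ± 65.2 and 1097 ± 132, and *Pparg* 5.12 ± 1.61 and 4.16 ± 0.753 (SD, n = 4 each). Without KO2, *Fabp4* and *Pparg* had log2 fold changes of 0.46 and 0.48 with an unadjusted edgeR p below 0.05 and an adjusted p of 1. Other left-out mice lowered them, with *Fabp4* at 0.11 without KO4 and *Pparg* at 0.12 without KO1.

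For each gene alone, an exact permutation test, 2-sided and on log2(CPM + 0.5), can give no p below 0.0286 with 4 mice against 4. *Retn* reached that smallest value, with 4 of 4 knock-outs above every wildtype mouse and means of 0.507 ± 0.665 and 0.0809 ± 0.0443 CPM (SD, exact p = 0.0286, n = 4 each). Permuted within pairs of mice with the same number, *Retn* was higher in the knock-out in 4 of 4 pairs with the same mean difference of 0.61 on the log2 scale, and 4 pairs allow no exact p below 0.125. Over the 9 genes with counts this was 1 test in a family of 9, and no adjustment over these genes is given because they were chosen with results known. The other 8 genes, *Adipoq* at 0.4 among them, gave exact p between 0.257 for *Pck1* and 0.629 for *Car3*, and *Lep* was at 0 counts in all 8 mice. *Cfd*, *Plin1* and *Cidec* shared an exact p of 0.314, and of their knock-out means of 2.4, 1.87 and 1.13 CPM that of *Cfd* came almost wholly from KO1 and the others mostly from KO1 and KO2.

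The mice that the study itself analysed (KO1, KO3, KO5 and the 4 wildtype mice) include the mouse that chose the genes, and their values are a description only. Here 6 of the genes passed the filter, with log2 fold changes of 8.70 for *Cfd* (SE 2.55), 5.47 for *Adipoq* (SE 1.9), 5.18 for *Plin1* (SE 1.67), 1.05 for *Pparg* (SE 0.32), 0.96 for *Fabp4* (SE 0.34) and 0.19 for *Car3* (SE 0.14). Of the 6, 5 lay among the 253 of 21809 genes (1.16%) higher at an unadjusted edgeR p below 0.05, and 0 genes were called. That count follows from how the genes were chosen, and nothing is read from it. It was 8 of 9 without KO3, 7 of 10 with no filter, 2 with limma-voom, 2 without KO5 and 1 without WT1 or WT4. Without KO5 the log2 fold changes were 5.20 for *Cfd*, 2.78 for *Adipoq*, 2.69 for *Plin1*, 0.50 for *Pparg* and 0.33 for *Fabp4*. The replicate block cannot use KO5, which has no wildtype mouse of its number, and gave 1.29 for *Adipoq*, 1.54 for *Plin1*, 0.40 for *Pparg* and 0.43 for *Fabp4*, with 1 gene of the set at an unadjusted p below 0.05. DESeq2 called 6 genes (0.0275%) there, *Cfd* among them. The comparison shares the wildtype mice, KO1 and KO3 with the one above.

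**Figure D3:**
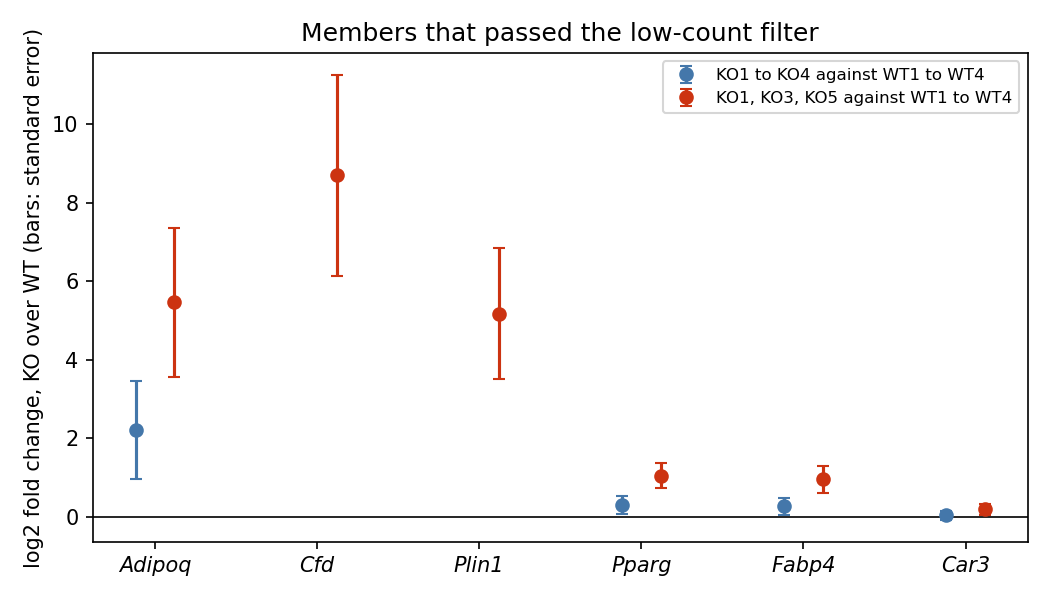
log2 fold change, knock-out over wildtype, with standard error from edgeR for the genes that passed the filter, in KO1 to KO4 against WT1 to WT4 (blue) and in the knock-outs KO1, KO3 and KO5 against the same wildtype mice (red). *Cfd* and *Plin1* passed the filter in the second of these comparisons only, and *Adipoq* is 2.21 without KO5 and 5.47 with it.

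Of 42 further genes of adipocytes, taken from a list that leaves out the 10, KO5 was the highest of the 9 mice for 23. Among the 34 with a mean of at least 1 CPM it was highest for 16, against 13.4% of all 17988 such genes. Of the 42, 15 were at least 2-fold above every other mouse, 12 of them at 1 CPM or more in KO5. The list was chosen with KO5's levels known, and some of the 12 reach 1 CPM in KO5 alone, so the counts are a description. These included *Cebpa*, the C/EBP factor that works with PPARγ, at 28.3 CPM in KO5 against 4.69 to 10.4 elsewhere, and *Lipe*, hormone-sensitive lipase, at 39.1 against 7.9 to 16.2. *Gpd1*, which makes glycerol phosphate, had 108 CPM against 28.4 to 49.9, and *Acvr1c*, the activin receptor ALK7, had 8.76 against 0.0591 to 1.78. *Adig* (adipogenin) and *Mrap* (the melanocortin receptor accessory protein) had 5.16 and 5.12 CPM in KO5, with at most 0.532 and 0.563 elsewhere, both in KO1. Over the 34 genes of the list with a mean of at least 1 CPM, the median log2 ratio of KO5 to the median of the other 8 was 0.474, beside -0.00452 over all such genes. A list of keratinocyte genes had a higher median, 0.85.

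Not all genes of the adipocyte list were high in KO5. *Fasn*, fatty acid synthase, was at 65.6 CPM in KO5 and 50 to 93.9 in the others, and *Scd1*, stearoyl-CoA desaturase, at 15.8 and 14.8 to 40.4. *Thrsp*, a lipogenic gene, was highest in KO5 at 35.3 CPM against 11.3 to 28.7, and *Mlxipl*, the transcription factor ChREBP, had 15.1 against 5.46 to 7.23. *Slc2a4*, the insulin-responsive glucose transporter that muscle uses too, was lowest in KO5 (89.9 CPM against 92.2 to 115). *Lpl*, lipoprotein lipase, was highest in KO5 at 833 CPM against 382 to 562. In KO1 to KO4 against wildtype, 33 genes of the list were tested, 0 were called and 1 (*Mlxipl*) had an unadjusted p below 0.05, being higher. The list's median log2 fold change there was 0.0527, beside 0.0016 over all genes.

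Of 15 genes of brown fat, which burns fatty acids for heat, KO5 was the highest mouse for 2, *Lhx8* and *Kcnk3*. *Ucp1*, its uncoupling protein, had 0 counts in KO5 and at most 0.126 CPM elsewhere, and *Otop1* 0 counts and at most 0.0591. *Cidea*, the droplet protein of brown fat, was lowest in KO5 at 8.46 CPM, with 8.65 to 22.4 in the other mice. *Lhx8* was at least 2-fold above the others (2.16 against at most 0.72 CPM), and the potassium channel *Kcnk3* was at 5.27 CPM against 2.05 to 3.1. *Cox8b* and *Cox7a1*, respiratory chain genes that muscle uses too, were second of the 9 mice at 59 and 27.9 CPM, with at most 82.4 and 30.3 elsewhere. The median log2 ratio over the 12 genes with a mean of at least 1 CPM was -0.101. KO5 was the highest mouse for 1 of these 12, against 13.4% of all genes at that level. Of 17 genes of fat precursors and stroma, all at that level, KO5 was the highest mouse for 2, against the same 13.4%. It was at least 2-fold above the others for 0. *Pdgfra* at 90.1 CPM (113 to 150 elsewhere) and *Dlk1* at 2842 (2907 to 3868) were below the other mice. *Sfrp5* was above them at 7.78 CPM (2.86 to 6.99), and *Ebf1* and *Dcn* were near the top of their range, at 113 CPM (69 to 115) and 754 (472 to 760). The median log2 ratio of these genes was 0.179.

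Relatives of the 10 genes with roles outside fat had a median log2 ratio of 0.0999 over 12 genes. *Fabp3*, the heart and muscle fatty acid binding protein, was the highest in KO5 at 212 CPM. Its level was 128 to 159 CPM in KO1, KO2, WT1 and WT2, and 53.1 to 74.8 in KO3, KO4, WT3 and WT4. *Plin5*, the perilipin of oxidative tissue, was at 23.8 CPM in KO5, with 24.2 to 34.4 in the former mice and 6.17 to 12.2 in the latter. The cause of this split was not tested. *Pck2*, the mitochondrial PEP carboxykinase, was at 21.9 CPM in KO5 against 22 to 30.4. *Ppara*, the PPAR of fatty acid oxidation, was lowest in KO5 at 1.02 CPM against 3.76 to 14.6. *Retnla* and *Retnlb* had 0 counts in all 9 mice.

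The summed level of 9 receptor genes of these hormones was 487 CPM in KO5, just below the 490 to 563 of the other mice, with a median log2 ratio of -0.163. *Cdh13*, the adiponectin-binding T-cadherin, was lowest in KO5 at 87.1 CPM against 97.3 to 117. *Adipor1* was at 121 CPM in KO5 and 116 to 133 in the others, *Adipor2* at 83.9 and 67.2 to 87.2, and *Lepr*, the leptin receptor, at 15.6 and 15.4 to 27.8. The 8 receptor genes tested in KO1 to KO4 against wildtype had a median log2 fold change of 0.0725, with 0 called and 0 at p below 0.05 in edgeR. *Rxra*, the partner of PPARγ on DNA, had 68.5 CPM in KO5 within 63.6 to 84.8, and the median log2 ratio of the 9 partners and cofactors was 0.00529.

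Markers of other tissues also differed in KO5, and their part in the result was not tested. The summed level of 8 Schwann cell genes, which mark myelinated nerve, was 724 CPM in KO5 against 322 to 440 in the other mice. *Mbp*, myelin basic protein, had 94.6 CPM in KO5 and at most 44 elsewhere, in KO1. The 14 keratinocyte genes summed to 64 CPM in KO5, 103 in WT4 and 18.8 to 41.2 in the remaining mice, among them KO1 at 19.4. Over the 11 of them with a mean of at least 1 CPM the median log2 ratio was 0.85, beside 0.365 for the Schwann cell genes. Cartilage and bone genes were lowest in KO5, at 40.2 CPM against 59.4 to 426. Endothelial genes summed to 998 CPM, within 773 to 1121, and macrophage and leukocyte genes to 243, within 172 to 250, while hepatocyte genes had 0.683 CPM in KO5 and 39.6 in WT4. Erythroid genes reached 4361 CPM in KO1 against 917 in KO5.

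KO5 shared its high *Xist* with KO3, WT3 and WT4, and these mice were far below KO5 for the 6 low genes summed above. Their highest *Adipoq* was 1.71 CPM, *Cfd* 0.358, *Retn* 0.157, *Plin1* 0.853, *Cidec* 0.205 and *Pck1* 0.293, all below 2 CPM. For the genes expressed in every mouse their highest was 289 CPM for *Fabp4*, 1123 for *Car3* and 5.29 for *Pparg*. WT3 and WT4 had the higher sums among the wildtype mice, 2.97 and 1.66 CPM against 0.954 in WT1 and 0.443 in WT2. KO1 and KO2, the next mice in order, had *Xist* under 1 CPM.

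**Figure D4:**
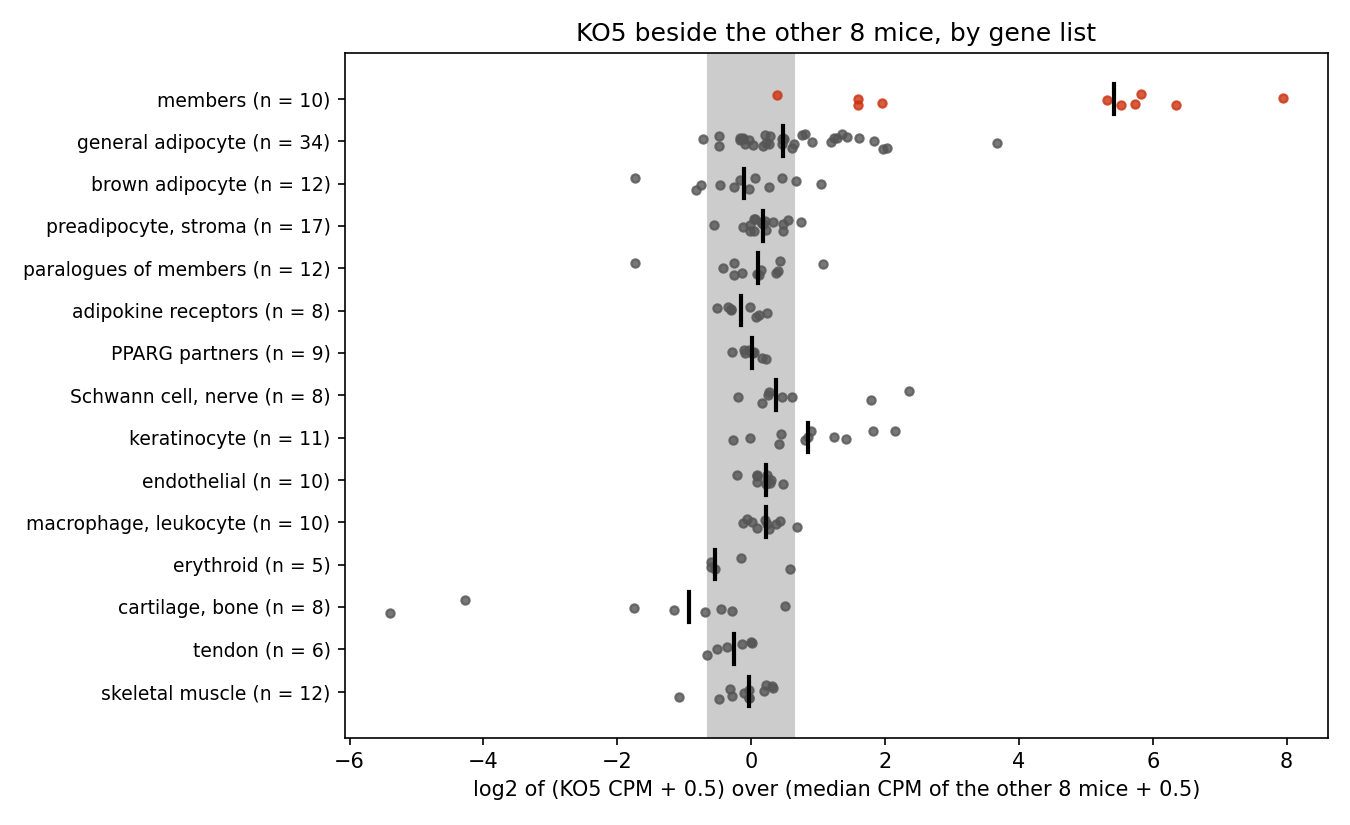
log2 of KO5 CPM + 0.5 over the median CPM + 0.5 of the other 8 mice, one point per gene and a bar at the median of each list, with the gray band holding the central 95% of all genes (-0.639 to 0.642). The general adipocyte list has its median at 0.474 and many genes beyond the band, and the brown adipocyte list has its median at -0.101. The keratinocyte list has its median at 0.85, the Schwann cell list at 0.365 and the cartilage and bone list at -0.925.

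The genes outside the 10 whose pattern was most like theirs were found by the ratio of KO5 to the highest of the other 8, each with 0.5 CPM added, over the 9 mice. They were *Lgals12* (ratio 6.9, 13.3 CPM in KO5 and at most 1.5 elsewhere), a galectin of lipid droplets, followed by *Adig* (5.48) and *Mrap* (5.29). *C3*, complement component 3, had 4.98 (25.8 against at most 4.79 CPM), and *Hp*, haptoglobin, 4.45 (19.4 against at most 3.98). *Apoc1*, *Ffar2*, *Acvr1c*, *Ces1f* and *Reep6* completed the 10, with ratios of 4.55, 4.42, 4.06, 3.73 and 3.62. KO1 was the next highest mouse for 9 of these 10 genes, against 11.1% of genes at 1 CPM or more in KO5. For *Ces1f* that next level was only 0.0313 CPM, near the floor. These genes were ranked on the values of KO5, so this too is a description.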

How the data were processed

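RNA libraries were made, 1 for each newborn mouse, from the gastrocnemius, in 5 knock-outs and 4 wildtypes. The deposited values are raw read counts per Ensembl gene: per the study's methods the authors aligned with HISAT2 2.2.1 to mm10, kept concordant pairs and counted with featureCounts 2.0.1. The sources used here do not give the strand setting, the annotation release or how multiply mapped reads were handled. Symbols matched 55144 of 55471 IDs, and positions came from GENCODE M21. Counts were filtered with filterByExpr (minimum count 10, minimum total 15), TMM-scaled and tested with edgeR 4.0.16 (R 4.3.3) by a robust quasi-likelihood test with Benjamini-Hochberg adjustment. Calls needed p below 0.05 and FDR below 25%, as in the study. DESeq2 1.42.0, limma 3.58.1 (voom), RLE scaling, no filter, left-out mice and a Y-linked covariate were alternatives. Single genes were tested with a 2-sided exact permutation test. Limits for a count of 0 take 3 counts. The edgeR script was tested on simulated data.

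Deviations of same-numbered KO and WT mice had correlations of 0.4623, 0.1045, 0.3666 and 0.1597 for numbers 1 to 4. The numbers were used as pairs in the replicate block and the paired permutation only, and the main fits used no pairing. The labels state no shared litter or day, and the correlations did not single out same-numbered pairs. KO2 correlated more with WT1 (0.3392) than with WT2, KO3 nearly as much with WT4 (0.3524) as with WT3, and KO1 with WT2 at 0.2038.

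The genes and all lists were chosen with earlier results of these data known. By rule the text names all 10 genes, up to 4 genes of each list with the largest ratio in KO5 and up to 2 of the highest level, and the 10 genes of most similar pattern. *Slc2a4*, *Fasn*, *Scd1*, *Ucp1*, *Otop1*, *Cidea*, *Pck2*, *Ppara* and other genes outside that rule were chosen after their values were seen. P-values judge a difference between the genotypes against the spread between these mice. Results for some single genes are left out.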

Additional observations from a re-analysis of the deposited data

Results flagged for a closer look

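Within each genotype, every gene of the set and every marker list was examined for a mouse far from its group, measured as the gap to the nearest mouse over the range of the group. Of 50 groups examined, 14 held such a mouse. The limit used marks about 5% of independent groups by chance, but these genes and lists share the same mice and are not independent. In KO mice, KO5 stood apart for 7 of the 10 genes: *Adipoq* (gap over range 0.887), *Lep* (1), *Retn* (0.961), *Cfd* (0.938), *Plin1* (0.873), *Cidec* (0.871) and *Pck1* (0.929). The genes were chosen for this, so it adds nothing to their description.

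Among WT mice, WT4 stood apart for *Pck1* (0.933, at 0.293 CPM on 9 counts) and WT3 for *Pparg* (0.908, at 5.29 CPM). For the summed marker lists, KO5 stood apart for Schwann cell genes (0.885), KO1 for erythroid genes (0.789), WT4 for keratinocyte genes (0.844) and for hepatocyte genes (0.998), and WT1 for relatives of the 10 genes outside fat (0.913).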

How the results depend on the processing

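In KO5 beside the other 8 mice, no ratio or count moved by more than the limits set when library totals, RLE factors or thinning to 26444372 counts were used. Without KO5, the 0 called genes became 5 with DESeq2, 2 with the replicate block, 0 to 6 when leaving out 1 mouse in turn (6 without KO1) and 14 without KO1 and KO2, an alternative added after seeing the data. The 300 genes with p below 0.05 became 823 with no filter, 279 to 542 leaving out 1 mouse (542 without KO2) and 1733 without KO1 and KO2. Adipoq turned from 2.21 to -1.52 without KO1 and KO2, and Car3, at 0.04, ranged from -0.0101 without WT3 to 0.112 without WT2 (-0.00144 without WT4). *Cfd* and *Plin1* passed the filter on low counts with an unadjusted p below 0.05 and an adjusted p of 1 without KO3 (4.68 and 2.79), without KO4 (4.70 and 2.79) and without KO2 and KO4 (5.20 and 2.69).

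In the study's mice, the 0 called genes became 1 with no filter, 6 with DESeq2, 8 with the replicate block and 0 to 15 leaving out 1 mouse (15 without KO1, 4 without KO3 and 1 without WT2). The 453 genes with p below 0.05 became 972, 841 with the replicate block, and 224 to 968 leaving out 1 mouse (224 without KO5, 968 without KO1, 794 without KO3). With DESeq2, 1 of the 10 genes, *Cfd*, was called (8.75). The cause of these shifts was not tested, and the left-out fits also held fewer mice. With the mice paired by number in the replicate block, *Adipoq* was 1.62 (edgeR adjusted p = 1) without KO5, and no gene of the set was called in either comparison. An exact test within 4 pairs, added after seeing the data, can give no p below 0.125 and so says nothing about stability; *Retn* was higher in 4 of 4 pairs. The other summary values and 143 single-gene values kept their direction and side of the threshold.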
